A study of Homo sapiens with 6 samples.

Results

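NOTCH signalling genes were followed in Het1A, a human oesophageal epithelial cell line that carries the SV40 large T antigen, after repeated contact with acid and bile acids. The set holds 9 genes, taken by symbol from a count table of 58735 genes: the receptors NOTCH1, NOTCH2 and NOTCH3, the ligands JAG1, JAG2 and DLL1, and the target genes HES1, HEY1 and NRARP. NOTCH receptors are single-pass membrane proteins that a ligand on a neighbouring cell switches on. Proteases then cut the receptor, and its inner part moves to the nucleus, where it joins the DNA-binding protein RBPJ and turns on genes such as HES1, HEY1 and NRARP. In squamous epithelia the pathway is known for moving basal cells towards differentiation.

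In the bile acid group, 3 libraries, cells met acidified medium of pH 4.0 with 100 µM of mixed glycocholic, taurocholic, glycodeoxycholic, glycochenodeoxycholic and deoxycholic acid for 10 min a day on 5 days. The control group, 3 libraries, received 0.1% DMSO, and the labels do not say that its medium was acidified. Serum had been lowered to 1% for all cells 48 h ahead of the exposures, and RNA was taken 24 h after the last. The labels number the libraries as biological replicates without saying how the cultures were separated, so p-values measure the spread between these libraries, which may be technical.

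HES1, a repressor of transcription, stood higher in every bile acid library than in controls 1 and 3. Control 2 lay below bile acid library 1 and above bile acid libraries 2 and 3. DLL1, a ligand, was the single gene whose bile acid libraries all lay above all controls in counts scaled by library. Of all genes tested, 5.29% did so. The separation of DLL1 was narrow and absent in another scaling given below. For the receptors, JAG1, JAG2, HEY1 and NRARP the groups overlapped, also without control 2. With all 6 libraries the quasi-likelihood test of edgeR called 0 of the 9 genes at an adjusted p under 0.05 (0.0% of the 17743 genes tested). At an unadjusted p under 0.05 edgeR had 0 of the 9 genes and 588 of all genes (3.31%). DESeq2 called 0 of the 9 and 0.107% of all genes, with 0 of the 9 and 4.8% of all genes at an unadjusted p under 0.05. Limma-voom called 0 of the 9 and 0 of all genes, with 0 of the 9 and 2.98% of all genes at an unadjusted p under 0.05. All 9 genes passed the filter on low counts.

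Total counts were 27008714 to 28497721 in the bile acid libraries and 21006677 to 26218597 in the controls. There 3 counts equal 0.105 to 0.111 and 0.114 to 0.143 per 1e+06 total counts, a limit of counting error alone. For CPM (counts per 1e+06, scaled by library) the totals over tested genes were further multiplied by a TMM factor. That factor was 0.851 in control 2 and 1.01 to 1.07 in the other libraries. Control library 2 stood apart from the other 5, with 19101 genes detected against 24174 to 25337. Its log2 CPM minus the mean of controls 1 and 3 had a median of −0.72 over the 1877 tested genes as long as the receptors (9394 to 16807 bp of exon), and of 0.51 over the 923 genes within 200 bp of the length of HES1. In the deposited FPKM, fragments scaled by gene length and by a library total, the total used as divisor was 0.999 times the summed gene counts in control 2 and 1.18 to 1.22 times them in the other libraries. FPKM of control 2 are therefore larger, for the same share of counts, than those of the other libraries.

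Markers of squamous epithelium were mostly at or near 0. Of 10 basal or general epithelial markers, CDH1, EPCAM and ITGB4 had a mean of at least 1 FPKM, while TP63 and KRT15 had at most 3 counts in every library, and the summed level was 25.9 to 38.7 FPKM in the bile acid group and 31.5 to 38.1 in controls. Of 10 markers of squamous differentiation 0 reached 1 FPKM, and 7 of them, KRT4, KRT13 and IVL included, had at most 3 counts in every library. Among 9 mesenchymal markers VIM, COL1A1 and PDGFRB reached 1 FPKM, and their list summed to 44.3 to 56.4 FPKM in the bile acid group and 25.7 to 44.8 FPKM in controls, while COL1A2, COL3A1 and LUM had at most 3 counts in every library. Of 6 endothelial markers 0 reached 1 FPKM (sums of 0.957 to 1.43 in bile acid libraries and 0.953 to 1.84 in controls), and of 6 leukocyte markers CD14 alone did (5.77 to 7.48 and 4.47 to 5.86). The part of these lists in the results below was not tested, and in such bulk RNA fewer cells of a type and less RNA per cell cannot be told apart.

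Levels of different genes were compared per length. In the bile acid libraries NOTCH2 had the highest mean, 7.59 FPKM, followed by HES1 (7.10 FPKM), DLL1 (5.27 FPKM), NRARP (4.41 FPKM), JAG2 (3.42 FPKM), NOTCH3 (2.72 FPKM), NOTCH1 (1.96 FPKM), JAG1 (0.789 FPKM) and HEY1 (0.302 FPKM). NOTCH2 and HES1 overlapped there, and each other neighbouring pair in this order was separated in 3 of 3 bile acid libraries with no overlap of ranges. In the controls the means ran from NOTCH2 (7.57 FPKM) through HES1 (4.46), DLL1 (4.21), JAG2 (3.65), NRARP (3.64), NOTCH3 (2.72), NOTCH1 (1.70) and JAG1 (0.524) to HEY1 (0.376). There NOTCH1 and JAG1 were the only neighbours whose ranges did not overlap. The place of HES1 among the controls rested on control 2, where it had 7.77 FPKM against 2.68 and 2.92 FPKM in controls 1 and 3. Over controls 1 and 3 alone HES1 averaged 2.80 FPKM and ranked 6, below NOTCH2 (9.61), DLL1 (4.63), NRARP (4.36), JAG2 (4.02) and NOTCH3 (3.72).

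JAG1, JAG2 and DLL1 encode membrane ligands that bind NOTCH receptors on the adjoining cell. JAG1 (chromosome 20, 10637684 to 10673999, minus strand, GRCh38) measured 12.8, 6.25 and 6.78 CPM in bile acid libraries 1 to 3, against 6.43, 3.08 and 7.29 CPM in control libraries 1 to 3. Bile acid library 1 was the high one and control 2 the low one, and the other 4 libraries lay together. The log2 fold change was 0.62 (SE 0.42, edgeR, adjusted p = 0.911, n = 3 per group). It was 0.22 without bile acid library 1 and 0.34 without control 2.

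JAG2 (chromosome 14, 105140981 to 105168824, minus strand) measured 26.2, 25.8 and 25.1 CPM in bile acid libraries 1 to 3, against 35.1, 21.8 and 23.7 CPM in control libraries 1 to 3. The bile acid libraries lay close together inside the range of the controls, of which control 1 was the highest. The log2 fold change of −0.07 (SE 0.23, edgeR, adjusted p = 0.965) turned to 0.18 without control 1. Exons of JAG2 share 7.33% of their length with a processed transcript on the same strand, AL512356.1, so some of its reads cannot be assigned with certainty.

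DLL1 (chromosome 6, 170282206 to 170306565, minus strand) had 562, 498 and 622 counts in bile acid libraries 1 to 3 and 493, 228 and 387 counts in control libraries 1 to 3. On the scale of library size that was 20.04, 18.2 and 21.6 CPM in the bile acid group and 17.7, 12.8 and 16.5 CPM in controls. The groups did not overlap in CPM, and the highest control, 17.7 CPM, lay close to the lowest bile acid library, 18.2 CPM. In FPKM they overlapped, with bile acid library 2 (4.8047 FPKM) just below control 1 (4.8065 FPKM). DLL1 averaged 19.96 ± 1.71 CPM in the bile acid group and 15.7 ± 2.58 CPM in controls (SD, n = 3 each), a log2 fold change of 0.35 (SE 0.21). Its adjusted p of 0.911 in edgeR missed the threshold, and its log2 fold change was 0.23 without control 2. Of the 9 genes 1 was thus wholly higher in CPM and 0 wholly lower, beside 5.29% and 4.89% of all genes tested, 10.2% in both directions.

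The ligand genes together amounted to 14.7, 15.5 and 15.99 FPKM in bile acid libraries 1 to 3 and 15.8, 15.6 and 14.4 FPKM in controls, when DLL3 and DLL4 were added to the 3 ligands of the set. DLL1 made up 35.9%, 31.0% and 35.8% of this sum in bile acid libraries and 30.4%, 21.6% and 30.9% in controls. The mean share was 34.3% ± 2.81 in bile acid libraries and 27.6% ± 5.21 in controls (SD, n = 3 each, exact permutation test, two-sided, p = 0.1, the smallest that 3 against 3 allow). Adjusted over the 9 shares of receptors and ligands compared, this exact p was 0.771, and without control 2 the difference of 6.63 percentage points was 3.62. DLL3, an atypical ligand known to stay largely inside the cell, gave 29.9%, 41.3% and 36.7% in bile acid libraries and 33.7%, 56.6% and 39.1% in controls, the highest share being that of control 2.

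NOTCH1, NOTCH2 and NOTCH3 are the receptors. NOTCH1 (chromosome 9, 136494433 to 136545786, minus strand) measured 25.6, 20.9 and 25.1 CPM in bile acid libraries 1 to 3, against 25.4, 11.1 and 24.2 CPM in control libraries 1 to 3. Control 2 stood at 0.4496 times the mean of the other controls, which in turn lay inside the range of the bile acid libraries. The log2 fold change was 0.23 with all libraries (SE 0.32, edgeR, adjusted p = 0.92) and −0.05 without control 2 (SE 0.17).

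NOTCH2 (chromosome 1, 119911553 to 120069626, minus strand), the most abundant receptor, measured 169, 117 and 164 CPM in bile acid libraries 1 to 3, against 204, 68.7 and 165 CPM in control libraries 1 to 3. Bile acid library 2 was the lowest of its group and control 2 the lowest of all. The log2 fold change of 0.03 (SE 0.39, edgeR, adjusted p = 0.992) was −0.29 without control 2, −0.06 without bile acid library 1 and −0.03 without bile acid library 3. Of the 150-base runs in NOTCH2 transcripts, 14.2% also occur in other genes, among them NOTCH2NLA, a partial copy of NOTCH2, and NBPF19, so NOTCH2 counts are uncertain by the reads of that stretch. NOTCH2NLA itself had 24, 3 and 21 counts in bile acid libraries and 25, 0 and 17 in controls.

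NOTCH3 (chromosome 19, 15159038 to 15200981, minus strand) measured 27.1, 26.1 and 36.6 CPM in bile acid libraries 1 to 3, against 45.03, 7.73 and 35.02 CPM in control libraries 1 to 3. It had the lowest ratio of control 2 to the other controls in the set, 0.193, and 7.34% of all tested genes were at least as low there. The log2 fold change was 0.03 (SE 0.55, edgeR, adjusted p = 0.995), −0.41 without control 2 (SE 0.19, adjusted p = 0.644) and −0.14 without bile acid library 3.

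NOTCH2 supplied 64.7%, 58.6% and 60.2% of the summed receptor FPKM in bile acid libraries 1 to 3, NOTCH4 included, and 62.2%, 66.7% and 61.2% in controls. NOTCH3 supplied 18.6%, 23.5% and 24.1% in bile acid libraries and 24.5%, 13.4% and 23.2% in controls, and NOTCH1 15.9%, 17.0% and 14.9% in bile acid libraries and 12.5%, 17.5% and 14.5% in controls. NOTCH4 stayed between 0.717% and 2.34%. The ranges of NOTCH1, NOTCH2 and NOTCH3 overlapped between the groups, with exact permutation p-values of 0.6, 0.4 and 0.8 (n = 3 each, two-sided). Summed receptor level was 13.2, 10.1 and 13.8 FPKM in the bile acid group and 17.1, 5.22 and 14.03 FPKM in controls, so the receptor sum of control 2 was the lowest of the 6.

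**Figure D1:**
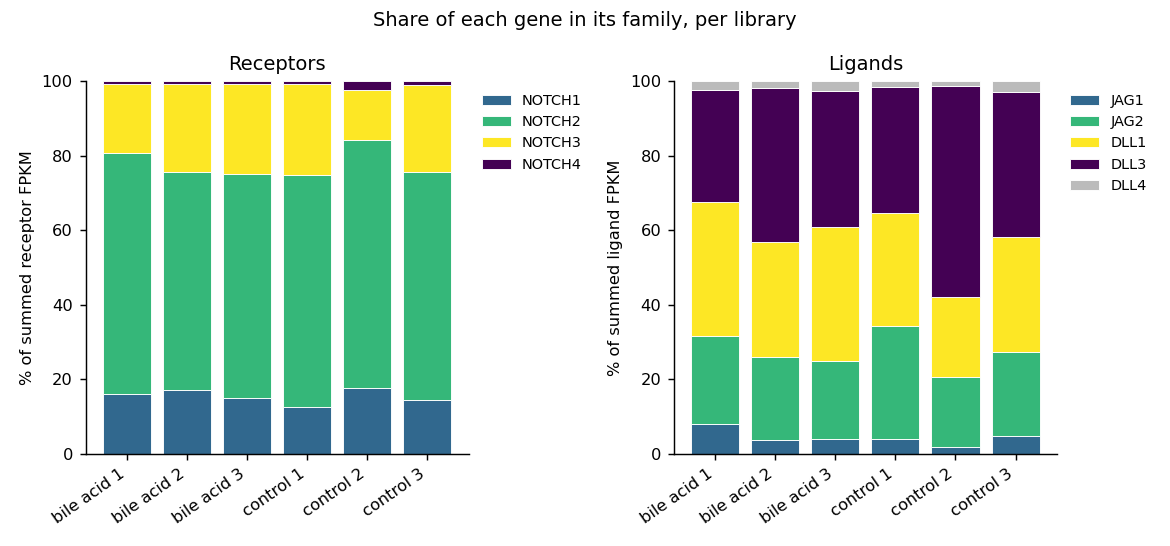
Share of each gene in the summed FPKM of its family (percent, vertical axis) in each library, receptors on the left and ligands on the right. NOTCH2 held 58.6% to 66.7% of receptor level in every library, and DLL3 of control 2 held 56.6% of ligand level, the highest share of that gene.

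HES1, HEY1 and NRARP are target genes. HES1 encodes a basic helix-loop-helix repressor that binds N-box elements, including those of its own promoter. The promoter is shown because HES1 had a log2 fold change of 0.69, beside that of NRARP, another target, at 0.30. Both are from RefSeq (GRCh38.p14) and run from 250 bases before to 50 after the start site, HES1 at chr3:194135898-194136197 on the plus strand and NRARP at chr9:137302222-137302521 on the minus strand. Capitals mark matches on either strand to the RBPJ site GTGGGAA, the N-box CACNAG and the TATA box TATAAA.
HES1: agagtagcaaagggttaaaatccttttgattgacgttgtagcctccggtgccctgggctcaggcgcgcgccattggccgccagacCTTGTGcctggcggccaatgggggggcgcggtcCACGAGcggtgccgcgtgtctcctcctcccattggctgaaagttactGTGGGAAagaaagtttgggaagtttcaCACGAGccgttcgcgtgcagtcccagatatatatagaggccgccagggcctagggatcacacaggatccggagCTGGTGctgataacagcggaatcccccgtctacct
NRARP: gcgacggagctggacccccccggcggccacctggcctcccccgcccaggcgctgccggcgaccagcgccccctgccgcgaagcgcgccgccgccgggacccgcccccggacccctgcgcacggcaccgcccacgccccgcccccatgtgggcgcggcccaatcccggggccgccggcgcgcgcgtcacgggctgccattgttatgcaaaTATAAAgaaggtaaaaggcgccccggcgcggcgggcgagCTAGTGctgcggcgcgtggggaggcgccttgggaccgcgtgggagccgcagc

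HES1 held 1 RBPJ match, starting at position −85 from the start site, and 4 N-box matches at −165, −132, −58 and 16, none of which overlapped another. Of the 7 genes of the set found in the RefSeq table, all but DLL1 and HEY1, only HES1 held GTGGGAA, which 6.25% of 35116 promoters of this length hold. N-box letters occurred in 5 of the 7 and in 38.0% of all promoters, and the letters TATAAA in NRARP alone and in 11.5% of all. Other forms of a TATA box or of the RBPJ site were not searched. HES1 was thus not shown to lack a TATA box, nor were these promoters shown to lack further RBPJ sites. The AP-1 site TGANTCA, also searched on both strands, occurred in 0 of the 7 and in 7.71% of all. These matches describe letters in the windows and nothing about binding.

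HES1 (chromosome 3, 194136145 to 194138732, plus strand) had 615, 381 and 452 counts in bile acid libraries 1 to 3, against 176, 336 and 162 counts in control libraries 1 to 3. Scaled to library size it measured 21.9, 13.9 and 15.7 CPM in the bile acid group and 6.33, 18.8 and 6.90 CPM in controls. Controls 1 and 3 lay together below every bile acid library, and control 2 lay inside the bile acid range. HES1 averaged 17.2 ± 4.203 CPM in the bile acid group and 10.7 ± 7.05 CPM in controls (SD, n = 3 each), a log2 fold change of 0.69 (SE 0.45, edgeR, adjusted p = 0.911).

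Without control 2, HES1 stood 2.60-fold higher in the 3 bile acid libraries than in controls 1 and 3, a log2 fold change of 1.39 (SE 0.24). That was rank 16 of 18274 genes by p, with an adjusted p of 0.139 in edgeR and 0.183 in limma-voom, neither past the threshold, and 3.33e-05 in DESeq2, which called it. DESeq2 called 158 genes without control 2 (0.865%), 0.783% higher and 0.0821% lower, and HES1 was the 1 gene of the set so called. Both edgeR and limma-voom called 0 of the 9 genes then and 1 gene of all (0.00547%, all higher), MT2A, a metallothionein named after its values were seen. At an unadjusted p under 0.05 each of the 3 tools had 1 of the 9 genes, HES1, beside 7.98% of all genes in edgeR, 7.79% in DESeq2 and 7.63% in limma-voom. The DESeq2 and limma-voom fits without control 2 were added after the data were seen. With that library left out HES1 and DLL1 were the genes of the set whose groups did not overlap in CPM, both higher. The same held for 24.8% of all genes tested, 12.1% higher and 12.7% lower.

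Among all tested genes, 6.59% were at least as far above controls 1 and 3 in control 2 as HES1, which was higher there by 1.499 on the log2 scale, against a median of 0.51 for genes of its length. With the trend of expression with gene length taken out of every library, the log2 fold change of HES1 with all 6 libraries was 0.97 (SE 0.35, edgeR, adjusted p = 0.882). HES1 was then the 1 of the 9 genes at an unadjusted p under 0.05 in edgeR, beside 4.14% of all genes, and 0 of the 9 were called. In the authors' other deposited counting HES1 had 698, 418 and 506 unscaled reads in bile acid libraries 1 to 3 and 202, 343 and 187 in controls. The order of libraries was that of its unscaled counts above. Before scaling, control 2 lay below every bile acid library in both countings, unlike in CPM.

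**Figure D2:**
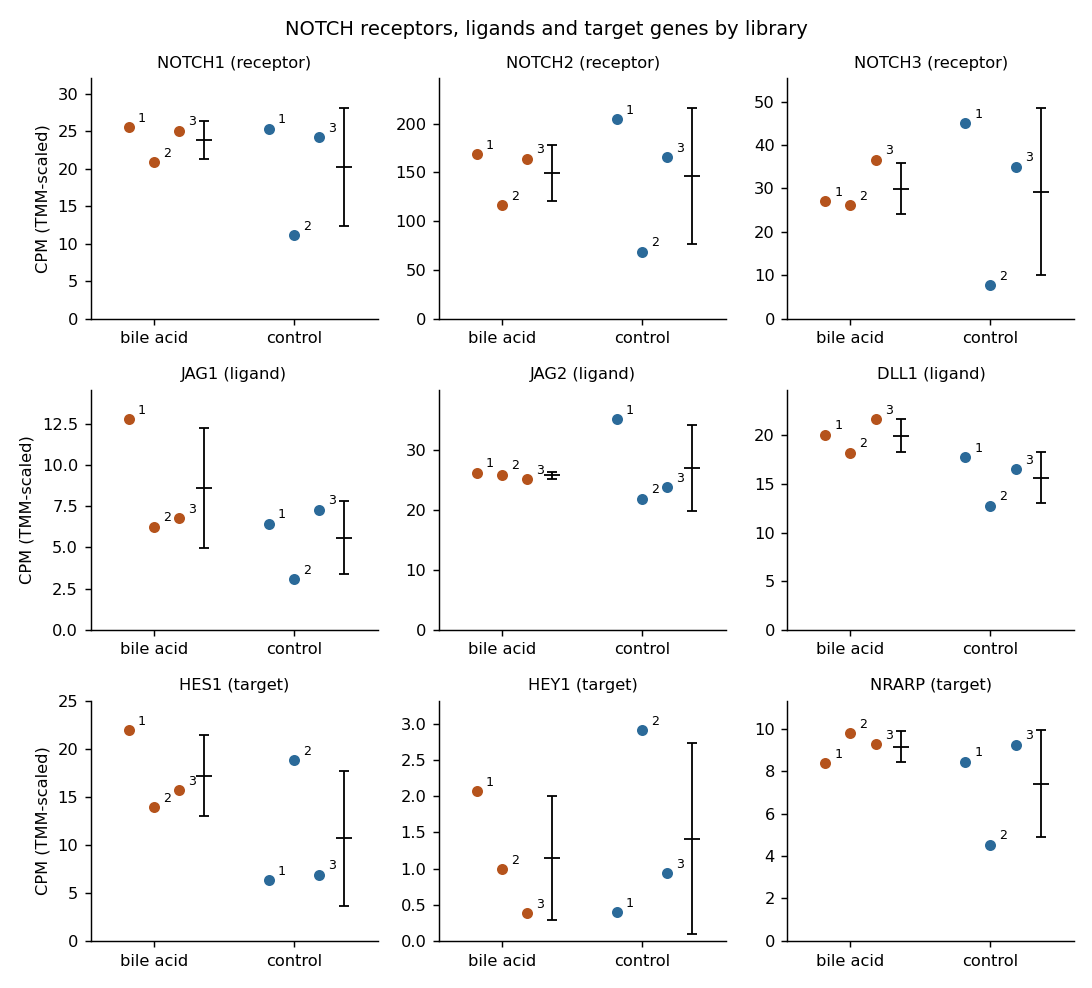
TMM-scaled CPM (vertical axes from 0) of the 9 genes in each bile acid and control library, points numbered by replicate, with the mean and SD of each group beside them. Control 2 is the lowest of 6 libraries for the receptors, the ligands and NRARP, and for HES1 it lies at 18.8 CPM, inside the bile acid range of 13.9 to 21.9 CPM.

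Bile acid library 1 had the highest HES1 of all. That library also had the highest level of early-response genes, a list of FOS, EGR1 and similar genes known for their quick and short-lived induction. The median of 16 tested members, relative to each gene's mean over the 6 libraries, was 1.97, −0.04 and 0.58 on the log2 scale in bile acid libraries 1 to 3, against −0.72, −0.82 and −1.13 in controls. HES1 on the same scale was at 0.80, 0.15 and 0.32 in bile acid libraries and −0.98, 0.58 and −0.86 in controls. HES1 thus had the same order as the list among the bile acid libraries, and control 2 was high for HES1 and low for the list. Without bile acid library 1 the log2 fold change of HES1 was 0.48, and the part of these genes in the result was not tested.

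The profile over the 6 libraries most like that of HES1, among 11386 protein-coding genes averaging 5 CPM or more, was that of HSPA1A, a stress-inducible HSP70. The root-mean-square difference of mean-centred log2 CPM was 0.149, where HES1 itself varied by 0.683. HSPA1A measured 107, 77.1 and 97.3 CPM in the bile acid group and 35.1, 93.4 and 44.996 CPM in controls, and is uncertain as a single gene because HSPA1B is nearly identical. NQO1, a quinone reductase, was next at 0.181, with 136, 98.7 and 116 CPM in the bile acid group and 57.3, 154 and 58.9 CPM in controls. CD24, a surface glycoprotein, followed at 0.249. CD24 measured 21.6, 16.5 and 22.6 CPM in the bile acid group and 8.12, 24.5 and 12.02 CPM in controls. All 3 were higher in control 2 than in the other controls, as HES1 was. They were picked for likeness over these same 6 libraries, so that pattern followed from the choice.

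**Figure D3:**
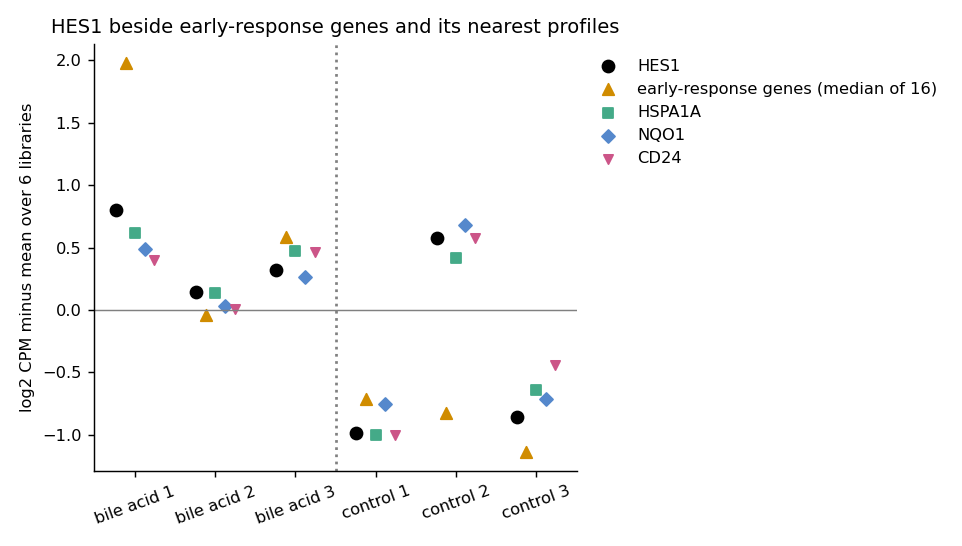
Log2 CPM minus the mean over the 6 libraries (vertical axis) for HES1, for the median of 16 early-response genes and for the 3 genes nearest to HES1, by library, bile acid left of the dotted line. In control 2 HES1 is at 0.58 and the early-response median at −0.82.

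The same measure placed SLFN5 (0.0775), EIF2AK2, the interferon-induced kinase PKR (0.0872), and FNDC3B (0.0893) nearest to JAG1. EIF2AK2 measured 282, 136 and 167 CPM in the bile acid group and 164, 69.5 and 162 CPM in controls, high in bile acid library 1 and low in control 2 as JAG1 was. KREMEN1 (0.0307), GNA13 (0.0364) and NUP205 (0.0377) lay nearest to NOTCH1. KREMEN1 measured 87.5, 75.2 and 90.2 CPM in the bile acid group and 87.9, 39.2 and 87.7 CPM in controls, and control 2 was the only library far from the rest. The genes near JAG1 and NOTCH1 were picked by the same libraries too, so their shared patterns followed from the choice.

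HEY1, a repressor related to HES1 (chromosome 8, 79764010 to 79767863, minus strand), was the least abundant gene of the set, with 58, 27 and 11 counts in bile acid libraries 1 to 3 and 11, 52 and 22 counts in control libraries 1 to 3. The libraries of each group differed among themselves several-fold, by 5.41-fold in CPM among the bile acid libraries. Its log2 fold change of −0.28 (SE 0.86, edgeR, adjusted p = 0.959) turned to 0.80 without control 2 (SE 0.69) and to 0.14 without bile acid library 3. A difference between the groups was not detectable at this depth and spread.

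NRARP, an ankyrin repeat protein that limits NOTCH signalling (chromosome 9, 137300482 to 137302251, minus strand), measured 8.38, 9.80 and 9.28 CPM in bile acid libraries 1 to 3, against 8.45, 4.54 and 9.25 CPM in control libraries 1 to 3. Control 2 was low and the other 5 libraries lay within a narrow range. The log2 fold change was 0.30 with all libraries (SE 0.31, edgeR, adjusted p = 0.913) and 0.06 without control 2 (SE 0.20). HES1 and NRARP, both targets, were thus on opposite sides of the other controls in control 2, at 2.84 and 0.513 times their mean.

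**Figure D4:**
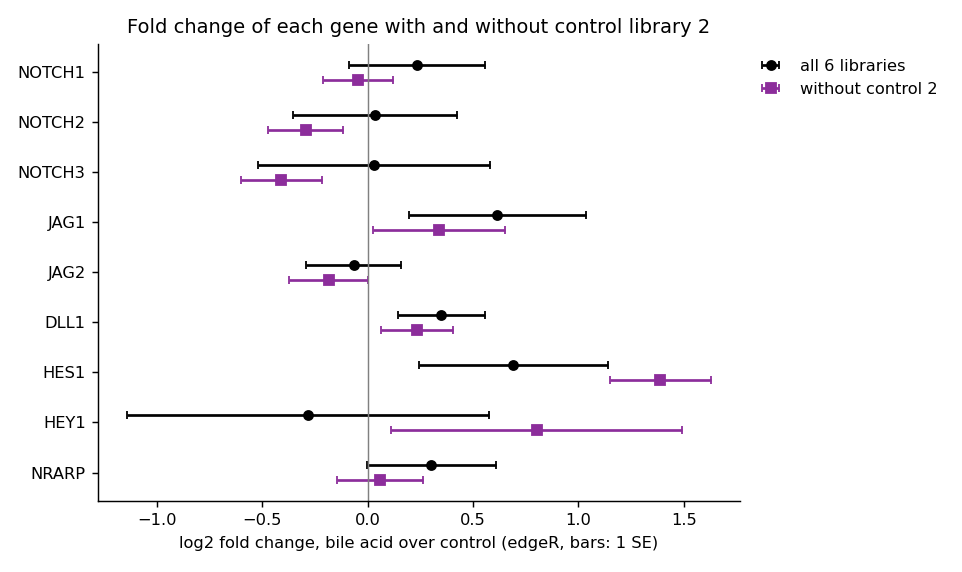
Log2 fold change of bile acid over control libraries (horizontal axis, edgeR, bars of 1 SE) for the 9 genes, with all 6 libraries and without control 2. HES1 is at 1.39 without control 2 and at 0.69 with all libraries, and without control 2 the 3 receptors are at values below 0.

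Other genes of the pathway were read from a list of 68 symbols, of which 65 were found and 62 tested. At an adjusted p under 0.05 edgeR called 0 of these higher and 0 lower, beside 0.0% of all genes tested. Of the 62, 37 had a positive and 25 a negative log2 fold change, with a median of 0.05, beside 48.8% positive and a median of −0.01 over all genes tested. At an unadjusted p under 0.05 edgeR had 1 of them, TLE1, beside 3.31% of all genes. DESeq2 called 0 of them, beside 0.107% of all genes, with 3 at an unadjusted p under 0.05, beside 4.8% of all genes. Limma-voom called 0 of them and 0 of all genes, with 1 of them at that unadjusted limit, beside 2.98% of all genes. Without control 2 the list had 30 positive and 32 negative values and a median of −0.0045, against 50.8% positive over all genes. Then edgeR called 0 of the list, beside 0.00547% of all genes. At an unadjusted p under 0.05 the list then had 6 genes in edgeR, beside 7.98% of all genes.

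In 9 of the 62 genes the groups did not overlap in CPM, 7 higher and 2 lower, beside 5.29% and 4.89% of all genes. Without control 2 the groups did not overlap in 18 of the 62, 10 higher and 8 lower, beside 12.1% and 12.7% of all genes. TLE1, a Groucho corepressor that HES proteins recruit, had the smallest p of the list, with 53.1, 49.0 and 49.3 CPM in bile acid libraries, against 34.8, 29.5 and 36.9 CPM in controls. Its log2 fold change was 0.58 (SE 0.17, edgeR, adjusted p = 0.911) and 0.50 without control 2 (SE 0.14, adjusted p = 0.364). Control 2 lay near the other controls for this gene. TLE4, of the same family, measured 6.38, 3.84 and 4.62 CPM in the bile acid group and 3.45, 1.74 and 3.79 CPM in controls. In FPKM the groups of TLE4 overlapped, with 0.399 in bile acid library 2 and 0.404 in control 3.

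NUMBL, a relative of the NOTCH inhibitor NUMB, measured 41.2, 31.9 and 41.4 CPM in the bile acid group and 29.04, 27.7 and 28.8 CPM in controls, a log2 fold change of 0.42 (SE 0.18). HDAC1, a histone deacetylase of corepressor complexes, measured 242, 237 and 289.8 CPM in the bile acid group and 203, 213 and 199.7 CPM in controls. Neither passed in edgeR with all libraries (adjusted p = 0.911). Without control 2 the log2 fold change was 0.41 for NUMBL and 0.36 for HDAC1 (edgeR, adjusted p = 0.572 for both).

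Among genes that mature the receptors, FURIN, which cleaves them on their way to the surface, measured 139, 128 and 138 CPM in the bile acid group and 117, 119 and 119.9 CPM in controls. POGLUT1, which adds glucose to the receptor repeats, measured 25.75, 21.9 and 24.4 CPM in the bile acid group and 21.1, 17.5 and 20.9 CPM in controls. MFNG, a fringe glycosyltransferase, lay at 1.22 to 1.46 CPM in the bile acid group and 0.81 to 1.06 CPM in controls. These 3 were named because their groups did not overlap, and 5.29% of all genes tested were wholly higher. In POFUT1, EOGT, LFNG and RFNG, the rest of this role, the groups overlapped. Their log2 fold changes were 0.06, 0.14, −0.04 and −0.43 (edgeR). In edgeR 0 of the 7 tested genes of this role passed, beside 0.0% of all genes.

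HEY2, a repressor related to HEY1, and NOTCH4 were the genes whose bile acid libraries all lay below the controls. HEY2 measured 1.11, 1.54 and 1.04 CPM in the bile acid group and 1.55, 3.08 and 2.56 CPM in controls, a log2 fold change of −0.96 (SE 0.41), and −0.72 without control 2. NOTCH4 measured 1.11, 1.02 and 1.18 CPM in the bile acid group and 1.37, 1.40 and 1.88 CPM in controls. With all libraries the 8 genes of receptor cleavage had 4 positive and 4 negative values, between −0.56 and 0.33. The 9 of the nuclear complex had 5 and 4, between −0.29 and 0.48. Without control 2, 3 of the 8 and 3 of the 9 were positive. CREBBP, of the nuclear complex, then lay wholly lower in CPM, as 12.7% of all genes tested did. Its log2 fold change was then −0.44 (edgeR, adjusted p = 0.422). The 14 corepressor and turnover genes had 11 positive values with all libraries and 11 without control 2, beside 48.8% and 50.8% of all genes. Some of the positive values lay near 0, such as CCNC at 0.003 and NCOR1 at 0.009 with all libraries. In edgeR 0 of the 14 were called in either setting.

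**Figure D5:**
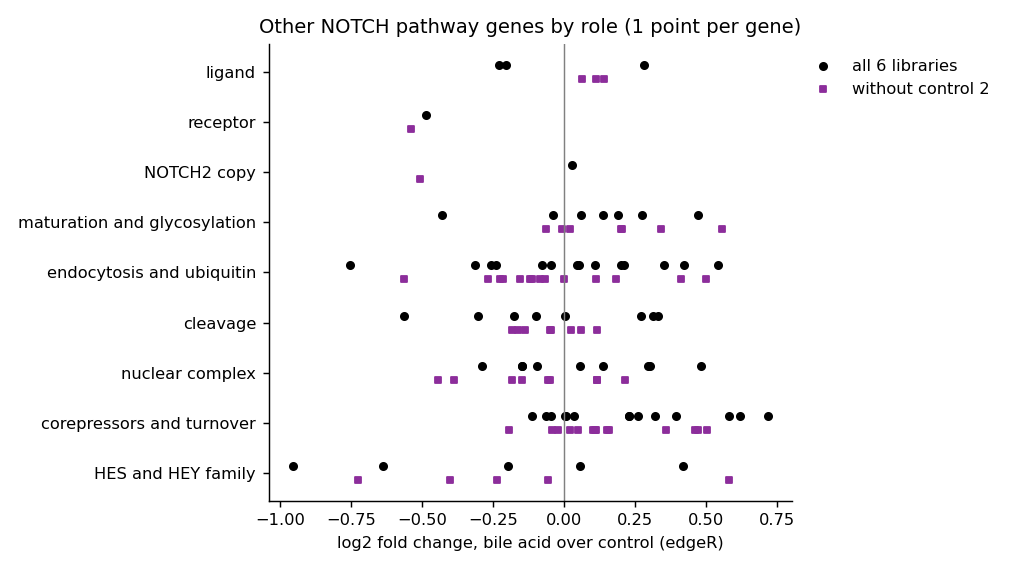
Log2 fold change of bile acid over control libraries (horizontal axis, edgeR) for the 62 tested genes of the pathway list, by role, with all 6 libraries and without control 2. None passed in edgeR, and values lie between −0.96 and 0.72 with all libraries.

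In the authors' deposited table of their own comparison, HES1 had a log2 fold change of 0.78 (SE 0.43), JAG1 0.62 (SE 0.46) and DLL1 0.37 (SE 0.27), and the other 6 genes lay between −0.23 and 0.28. The adjusted p there was 0.977 to 0.998 for the 9 genes, while the authors' deposited table has 19 genes under 0.05. The authors' deposited table of gene sets lists the Notch signaling pathway, 173 genes, with a normalized enrichment score of 1.68 (adjusted p = 0.000786). Its leading genes include NOTCH1, JAG1, DLL1, HES1 and NRARP, in the authors' deposited table. That table has 2196 terms, 2114 of them with a positive score, and 860 have an adjusted p as low as this term.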

How the data were processed

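Per the submitters' processing notes HISAT2 2.0.5, featureCounts, DESeq2 and GRCh38 were used, without their roles; whether counting used strand was not stated in them. The deposited table holds whole-number counts per gene, with gene lengths (other values) and coordinates that for the 9 genes equal GENCODE release 29. The deposited FPKM are the authors' own. The authors' normalized counts are a signal equal to whole reads over 1 factor per library (100% whole within 0.001). Those reads exceed the count table by 3.84% to 4.20% and come from another counting, on which edgeR called 0 genes. Per the file headers, the authors' comparison gives log2 fold changes and p-values, and their gene set table an enrichment score and p-values.

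Deposited counts of 3 bile acid and 3 control libraries were tested with edgeR 4.0.16 in R 4.3.3 (glmQLFTest), using TMM scaling, filterByExpr and Benjamini-Hochberg adjustment over all genes. The SE was taken as the log2 fold change divided by the square root of the F statistic. Alternatives used DESeq2 1.42.0, limma 3.58.1 on voom values, log2(FPKM + 1) and log2(FPKM + 0.1), other scalings and filters, a lowess of span 0.3 on gene length, a replicate block and each library left out. Fits were tested on simulated data. Shares used exact permutation (SciPy 1.17.1). By rule, pathway genes were named with an adjusted p under 0.05 or, up to 12, with groups that do not overlap, in order of p. The 3 genes nearest in profile to HES1, JAG1 and NOTCH1 were also named by rule. Other pathway genes in the text, such as DLL3, HES4, HES6, RBPJ and CREBBP, were named outside this rule. The genes and lists were chosen with earlier results of these data known.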

Additional observations from a re-analysis of the deposited data

How the results depend on the processing

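Over 22 alternatives (20 for HEY1, which 2 FPKM settings filter out), HES1, JAG1, DLL1 and NRARP kept the sign of their log2 fold change, and the one call among the 9 genes was that of HES1 in DESeq2 without control 2 (1.39). The DESeq2, limma-voom and length-trend fits without control 2 were added after the data were seen. Signs turned as follows, with no call, and the cause was not tested. Without control 2, in edgeR, DESeq2, limma-voom and edgeR with the length trend removed, NOTCH1 was −0.0455, −0.0466, −0.0514 and −0.0028, NOTCH2 −0.29, −0.30, −0.31 and −0.22, NOTCH3 −0.41, −0.41, −0.42 and −0.37, and HEY1 0.80, 0.80, 0.62 and 0.79. NOTCH2 was −0.0685 with the length trend removed and −0.0478 with that and the replicate block. NOTCH3 was −0.0167 with library totals alone and HEY1 0.0034 in limma-voom. Leaving out each library in turn, the log2 fold change ranged from −0.0455 to 0.43 (NOTCH1), −0.29 to 0.36 (NOTCH2), −0.41 to 0.49 (NOTCH3), 0.22 to 0.85 (JAG1), −0.19 to 0.18 (JAG2), 0.23 to 0.45 (DLL1), 0.43 to 1.39 (HES1), −1.02 to 0.80 (HEY1) and 0.06 to 0.50 (NRARP). Differences of shares, in percentage points, ranged there from −0.0576 to 2.45 (NOTCH1), −1.79 to 3.77 (NOTCH3) and −4.11 to 1.74 (JAG2). The number of genes called was 0 in edgeR, 19 in DESeq2, 158 in DESeq2 without control 2 and 1 in edgeR or limma-voom without it, and 0 to 1 with each library left out. The set had 1 call in DESeq2 without control 2 and 0 otherwise. The replicate block gave HES1 a log2 fold change of 0.86 (edgeR, adjusted p = 0.768) and 0 calls. Deviations from group means of same-numbered libraries correlated across genes at 0.307, 0.382 and 0.0979, the last under 0.1, and bile acid library 3 correlated best with control 1, so the numbers were not taken to pair libraries. Counts of HEY1, 11 in 2 libraries, limit what can be seen of it.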

Other observations

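HES4, another HES gene, measured 9.77, 7.27 and 7.41 FPKM in bile acid libraries and 4.84, 7.33 and 6.41 FPKM in controls, and HES6, a relative known to oppose HES1, 16.01, 19.8 and 15.1 FPKM in bile acid libraries and 18.2, 38.998 and 23.1 FPKM in controls. Control 2 was the highest control for both, and neither passed in edgeR. HES7 and HEYL, also tested, had overlapping groups and log2 fold changes of −0.20 and 0.06 (edgeR). The groups of HES6 overlapped with and without control 2, and those of HES4 overlapped through control 2 alone, without which its log2 fold change was 0.58 (edgeR, adjusted p = 0.573). RBPJ, the DNA-binding partner of the receptors, stood at 12.7, 9.23 and 10.6 FPKM in bile acid libraries and 11.6, 12.1 and 11.6 FPKM in controls, with overlapping groups and bile acid library 2 the lowest. DLK1, HES2 and HES5 were too low to be tested, and HES5 had 0 counts in all 3 bile acid libraries and 6, 5 and 0 counts in controls.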
